A study of Mus musculus and Homo sapiens with 12 samples.

Results

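Chromatin-associated RNA of mouse embryonic stem (mES) cells holds transcripts of ERVL, the class III endogenous retroviruses, and the elements described here were those of the ERVL family other than MERVL. They were found by annotation alone: every repeat element of the mouse table with the family name ERVL, leaving out the subfamilies MERVL-int and MT2_Mm. The rule gave 94293 of 3158171 elements, in 109 subfamilies, of which 5116 elements and 108 subfamilies had any count. Another 712 elements of uncertain family were left out.

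RNA fragments carrying 5-methylcytosine (m5C) were precipitated with an anti-m5C antibody and sequenced (meRIP–seq). The wild-type (WT) group was mES cells with intact Tet2, and the knockout (KO) group was Tet2-/- mES cells. The groups had 3 libraries each, and all were m5C precipitates of chromatin-associated RNA from cells kept in serum medium with leukaemia inhibitory factor and kinase inhibitors. Both lines came from another laboratory, and the sources used here do not say whether each is 1 clone or whether the replicates were separate cultures, so the p-values measure the spread between these libraries. The libraries held 1532029 to 3318565 counts over DNA, LINE, LTR and SINE elements. The table holds repeats only, so neither loss of Tet2 RNA nor stem cell identity could be checked against marker genes. The table gives precipitates without input or spike-in columns. A difference between the groups can therefore come from the amount of an RNA or from the m5C it carries, and it is measured against the remaining repeats. In such bulk samples fewer expressing cells and less RNA per cell cannot be told apart.

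An intact ERVL insertion has an internal part, which codes for the viral proteins, between long terminal repeats (LTRs) that carry its promoter and its RNA ends. Most copies have lost the internal part by recombination and remain as solitary LTRs. MERVL, with its LTR MT2_Mm, is the young mouse member known for its burst of transcription in early cleavage embryos and in rare stem cells of similar state. Its relatives are older and mostly unable to move. In RNA, m5C is written by NSUN2 and related methyltransferases, and TET2 oxidises it.

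The stretches below begin the elements on which the results turn, read from the GRCm38.p6 reference in the orientation of the element. Capitals mark CNGGG on the strand shown, a cytosine followed 1 base later by a run of G known at many NSUN2 sites. The first is the MERVL_2A-int element with the highest mean count, and the next is a copy that carries the MERVL-int consensus. MERVL_2A-int names the internal part of a MERVL relative.
MERVL_2A-int chr15:68986909-68987208, minus strand: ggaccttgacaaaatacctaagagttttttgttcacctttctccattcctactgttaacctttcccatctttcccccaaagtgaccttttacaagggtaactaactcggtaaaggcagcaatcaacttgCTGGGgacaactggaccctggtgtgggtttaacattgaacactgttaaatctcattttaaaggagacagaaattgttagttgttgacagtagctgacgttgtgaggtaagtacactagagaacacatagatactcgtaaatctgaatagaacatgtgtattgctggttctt
MERVL_2A-int chr3:158871899-158872198, plus strand: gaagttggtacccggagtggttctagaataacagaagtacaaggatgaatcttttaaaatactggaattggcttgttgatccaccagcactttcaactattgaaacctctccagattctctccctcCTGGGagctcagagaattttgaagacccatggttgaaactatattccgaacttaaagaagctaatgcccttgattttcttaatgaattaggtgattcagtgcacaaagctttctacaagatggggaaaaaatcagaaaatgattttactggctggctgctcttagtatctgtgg
The last 4 were counted in 1 library alone or almost alone. They are shown because they hold much of their subfamily in that library.
RMER10A chr9:88952712-88953011, plus strand: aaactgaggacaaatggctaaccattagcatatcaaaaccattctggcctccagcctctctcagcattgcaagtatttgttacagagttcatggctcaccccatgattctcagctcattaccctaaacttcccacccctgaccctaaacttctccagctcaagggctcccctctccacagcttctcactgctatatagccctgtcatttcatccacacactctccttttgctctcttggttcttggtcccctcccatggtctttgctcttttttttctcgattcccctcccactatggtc
RMER10A chr9:89195061-89195360, plus strand: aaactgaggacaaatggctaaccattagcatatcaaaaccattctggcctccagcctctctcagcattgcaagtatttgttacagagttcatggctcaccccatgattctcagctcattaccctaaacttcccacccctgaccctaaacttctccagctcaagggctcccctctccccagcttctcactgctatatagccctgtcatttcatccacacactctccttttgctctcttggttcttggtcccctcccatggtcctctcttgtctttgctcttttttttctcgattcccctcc
MT2B1 chr5:109753507-109753806, plus strand: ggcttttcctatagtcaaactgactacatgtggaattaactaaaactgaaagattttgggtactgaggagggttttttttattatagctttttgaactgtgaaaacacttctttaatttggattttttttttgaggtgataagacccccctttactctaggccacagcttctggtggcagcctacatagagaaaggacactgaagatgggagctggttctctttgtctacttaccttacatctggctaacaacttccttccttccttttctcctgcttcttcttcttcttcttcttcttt
ERVL-int chr2:157166199-157166292, minus strand: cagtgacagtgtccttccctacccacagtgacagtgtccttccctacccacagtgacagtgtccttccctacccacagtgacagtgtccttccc
The whole ERVL-int element is 94 bases long and repeats a 25-base unit, with 100% of its bases matching at that shift. The RMER10A elements lie apart on chromosome 9, near Bcl2a1a and near Bcl2a1b, and align over 454 columns at 97.6% identity. Over the first 300 bases of the 3677 member elements with counts and that length, 66.6% held CNGGG on the element's strand and 84.8% on either strand. Over 198158 such windows of all elements with counts the shares were 68.8% and 85.2%. For MERVL_2A-int the share on the element's strand was 50.2% of 291 windows, and for MERVL-int it was 84.6% of 1006. A match is a description of the letters and not a mapped m5C site.

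Whether loss of Tet2 altered the recovery of these elements was asked first for their sum. ERVL other than MERVL took 0.242%, 0.227% and 0.211% of the WT libraries and 0.185%, 0.190% and 0.293% of the KO libraries. The means were 0.227% ± 0.0155 (SD, n = 3) in WT and 0.222% ± 0.0609 (SD, n = 3) in KO. The groups overlapped, and the log2 ratio of the means was -0.03 on unscaled library totals. It was -0.21 after TMM scaling and -0.26 with DESeq2 size factors, also with overlapping groups. On library totals the median log2 change over all fitted subfamilies was 0.30. MERVL-int alone took 1.81% ± 0.225 (SD, n = 3) in WT and 0.614% ± 0.217 (SD, n = 3) in KO.

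The name groups within the sum differed in direction. MERVL_2A-int was lower in every KO library than in any WT library, at 0.0619% ± 0.00277 against 0.0329% ± 0.000873 (SD, n = 3 each). Without it, the log2 ratio of the rest was 0.20. Elements outside annotated genes gave -0.35 and those inside genes 0.38, and neither pair of groups was separate. The 5 MT2 LTR subfamilies gave -0.63 and the 4 RMER subfamilies 0.67 on the same scale, both with overlapping groups. After TMM scaling these were -0.80 and 0.46. The 10 MLT2 subfamilies, ancient LTRs found across mammals, took 0.00749% ± 0.00183 in KO against 0.0039% ± 0.00115 in WT (SD, n = 3 each), a log2 ratio of 0.94. Every KO library was higher than any WT library on this scale, but after TMM scaling the ratio was 0.78 and the groups overlapped. The 4 subfamilies outside all name groups gave 1.39 with separate groups. After TMM they gave 1.18, still separate, and with DESeq2 size factors 1.12 with overlap. MER LTRs gave 1.46, numbered LTRs -0.39 and the other internal parts -0.10, all with overlapping groups.

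**Figure D1:**
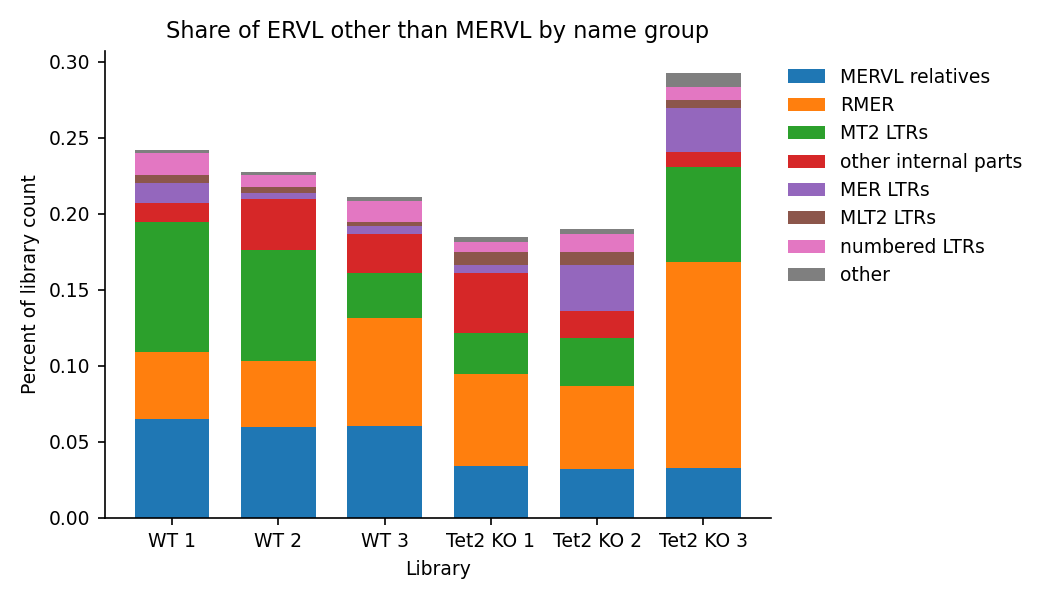
Stacked bars give the percent of each library's count (y axis) taken by the name groups of ERVL other than MERVL in the 3 WT and 3 Tet2 KO libraries (x axis). The lowest segment, MERVL_2A-int, is between 0.0601% and 0.0651% in WT and between 0.0320% and 0.0338% in KO, and RMER is widest in KO replicate 3.

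Counts were few and unevenly spread over subfamilies. MERVL_2A-int, RMER15 and RMER10A held 45.7% of all member counts, and the 12 subfamilies with the highest level held 83.0%. A mean count under 10 per library was found for 78 of the 109. Per annotated megabase, LTR33A_ had 657 counts, RMER10A 460, MERVL_2A-int 403 and ERVL-int 373, against 122 for RMER15 and 65.4 or less for each tested MLT2 subfamily.

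**Figure D2:**
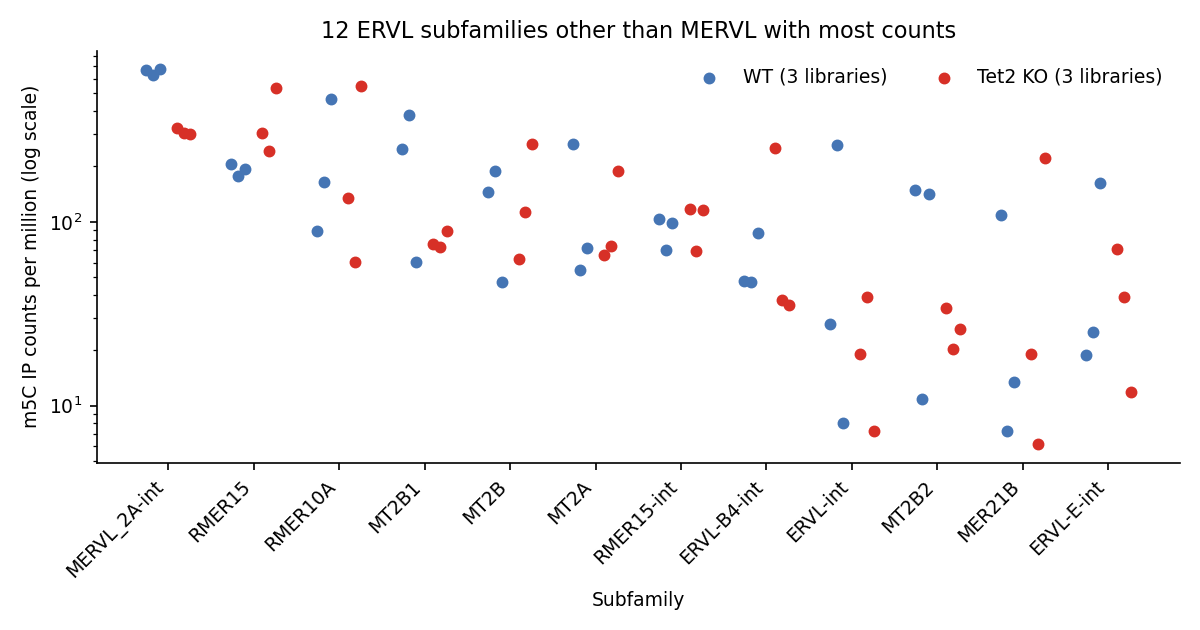
CPM after TMM scaling (y axis, log scale) in each library of the 12 subfamilies with most counts (x axis), WT in blue and Tet2 KO in red. MERVL_2A-int and RMER15 have separate groups, and the others overlap.

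In the edgeR quasi-likelihood test 27 of the 109 members had enough counts to be fitted. None passed an adjusted p of 0.05, and 2 had an unadjusted p under 0.05, whereas DESeq2 called 2, beside 10.2% of all fitted. Over all 547 subfamilies fitted, 11 or 2.01% were called and 15.9% had an unadjusted p under 0.05. The log2 change was above 0 in 16 members and below 0 in 11, with a median of 0.15 beside 0.12 over all subfamilies. The standard error exceeded the change in 13 of the 27. The groups did not overlap in 3 members, beside 21.6% of all subfamilies. MERVL_2A-int and LTR33A_ were lower in KO, as were 10.4% of all subfamilies without overlap, and RMER15 was higher, as were 11.2%.

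**Figure D3:**
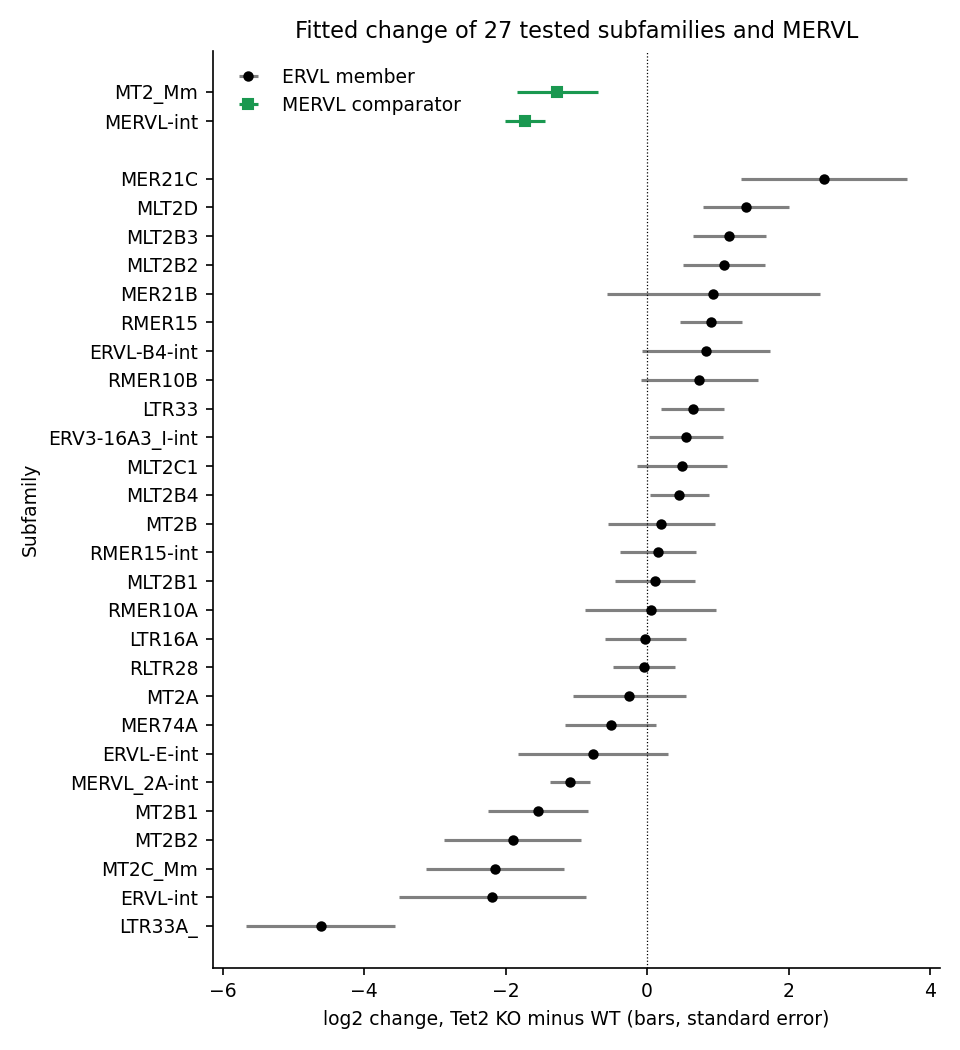
Fitted log2 change of Tet2 KO minus WT (x axis, bars are standard errors) of the 27 members that could be tested and of the comparators MERVL-int and MT2_Mm (y axis). The members run from -4.62 for LTR33A_ to 2.50 for MER21C, and no member passed the adjusted threshold.

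MERVL_2A-int stood at 671, 630 and 674 CPM (counts at a common library size, scaled by TMM) in the WT libraries and at 325, 303 and 299 in the KO libraries. Each group was narrow and the groups were far apart. The log2 change was -1.09 ± 0.278 (SE), which missed the threshold with an edgeR adjusted p of 0.143. Over the alternatives it ranged from -1.19 to -0.91, with adjusted p from 0.000356 by DESeq2 to 0.355 by edgeR. The internal part of MERVL itself fell by 1.73 (edgeR adjusted p = 0.0293), and its LTR MT2_Mm had a log2 change of -1.27 (edgeR adjusted p = 0.314).

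The name MERVL_2A-int covered copies that differed in their identity to MERVL-int. Of its 305 elements with counts, 22 aligned to MERVL-int elements over at least 90% of their length at 95% identity or more, with a median best identity of 98.6%. Another 275 aligned in this way over under 10% of their length, with a median best identity of 75.4% over the 262 that aligned at all. The close copies held 27.6% of the subfamily's count and the diverged copies 61.8%. Reads of the close copies may be shared with MERVL-int, and their values are uncertain for that reason.

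Both sets were lower in KO. The close copies had 211, 177 and 167 CPM of the unscaled library total in WT and 104, 61.4 and 50.7 in KO, a log2 ratio of the means of -1.36. The diverged copies had 369, 342 and 395 in WT and 194, 213 and 251 in KO, a log2 ratio of -0.75. In neither set did the groups overlap. The other 8 copies, in between by the aligned share of their span, held 10.6% of the count. Their groups overlapped, with a log2 ratio of -0.81. Some were long spans around a close stretch: 5431 of 10898 bases on chr3, 5475 of 10675 on chr9 and 5473 of 8774 on chr7. Span length thus keeps such copies out of the close set, and their reads may also be shared with MERVL-int. MERVL-int on the same scale of share gave -1.56. The fall differed by length among the 261 elements with the subfamily's own consensus length, which include some close copies. The 113 of at least 4000 bases gave -0.62 and the 148 shorter ones -1.90, both with separate groups. Much of the shorter set's WT total came from few elements. Of its 336 in WT replicate 2, chr17:25702224-25704706 held 255, with at most 0.5 in any other library. For WT replicate 1, chr15:75085031-75087169 held 97.3 of 295. Copies of 442 bases at chrX:3480669, chrX:4140200 and chrX:3776332 held 83.6, 59.5 and 45.5 of 375 in WT replicate 3. Reads of these chrX copies may be shared. The length contrast without such elements was not tested.

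**Figure D4:**
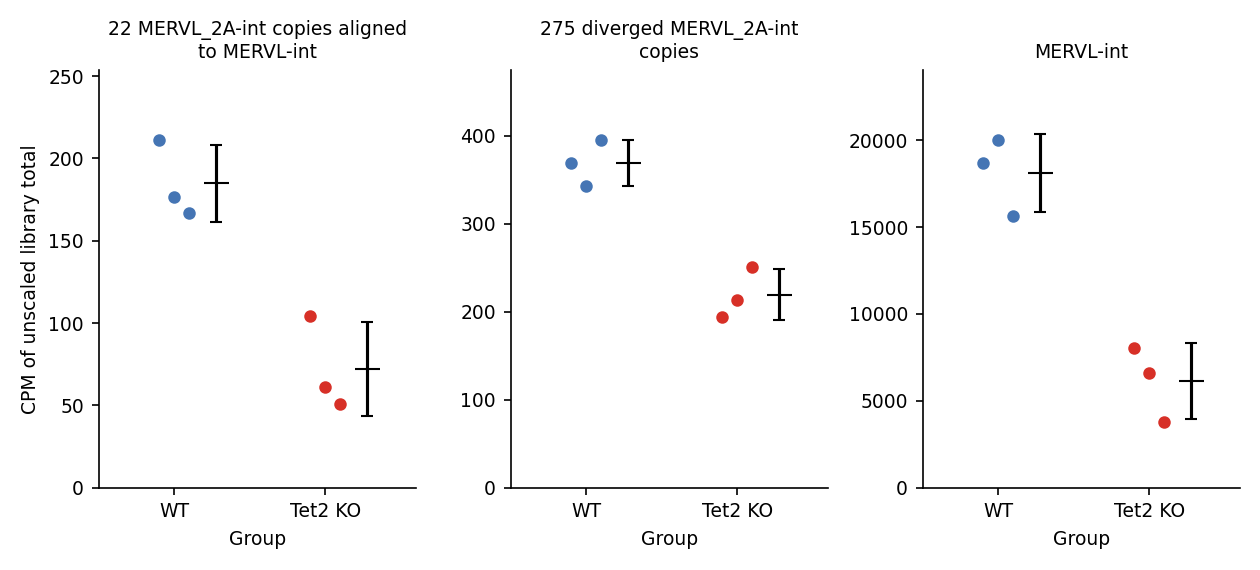
CPM of the unscaled library total (y axes from 0, each panel its own scale) in WT and Tet2 KO libraries (x axes) for 22 MERVL_2A-int copies close to MERVL-int, 275 diverged copies and MERVL-int. Points are libraries, and bars are the mean and SD of 3. The groups are separate in each panel, with log2 ratios of -1.36, -0.75 and -1.56.

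Whether the relative moved with MERVL was tested within libraries. The log2 ratio of MERVL_2A-int over MERVL-int was -4.84, -5.06 and -4.69 in WT and -4.57, -4.36 and -3.52 in KO. Every KO ratio was higher, by 0.71 on average, with an exact two-sided permutation p of 0.1, the smallest that 20 assignments allow, and 0.6 after adjustment over 6 comparisons. The difference was 0.21 for the close copies (exact p = 0.3) and 0.87 for the diverged copies (exact p = 0.2). For the diverged copies the groups overlapped. KO replicate 3, with the lowest MERVL-int count, gave the highest ratio, and without it the difference over all copies was 0.40.

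Single elements of MERVL_2A-int were long and named the subfamily's main sources. The element at chr15:68978859-68987208, in an intron of Khdrbs3, had in WT 157, 171 and 176 counts and in KO 76.9, 60.2 and 63.9. After scaling its groups did not overlap, at 75.8, 59.7 and 58.5 CPM in WT and 55.8, 52.8 and 43.3 in KO. The log2 change of this element was -0.35 (edgeR adjusted p = 0.575). Single elements were scaled by TMM in a fit of their own over 19030 elements. Their changes are therefore not on the scale of the subfamily's -1.09. The element at chr13:111498892-111507407 counted 38.6, 230 and 185 in the WT libraries against 31.6, 31.8 and 64.0 in KO, and its groups overlapped. The intergenic element at chr3:158871899-158882796 counted 88.5, 208 and 93.3 in WT against 39.0, 55.1 and 45.8 in KO. After scaling its groups overlapped, with a log2 change of -0.44 (edgeR adjusted p = 0.626).

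The remaining named copies were uneven between libraries, as were those on chr13 and chr3. The element at chr1:7188016-7198408, which spans the pseudogene Nras-ps2, counted 54.8, 105 and 226 in WT against 35.0, 18.6 and 41.9 in KO. Scaled values overlapped between its groups, with a log2 change of -0.97 (edgeR adjusted p = 0.348). The element at chr14:81900600-81907315 had 100, 79.2 and 98.1 in WT and 33.2, 82.5 and 25.4 in KO, with a log2 change of 0.06. Each of these 5 spans also held at least 1 other repeat with counts of its own, such as an IAP or L1 element.

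Over the 31 member elements with enough counts for a fit, of 19030 in all, edgeR called 0 beside 0.0473% of all, with 8 at an unadjusted p under 0.05 beside 21.0% of all, and DESeq2 called 4, beside 11.3% of all. Of the 31, 18 were MERVL_2A-int. On the scale of this element fit their median log2 change was -0.87, and 14 lay below 0. In 8 or 44.4% the KO libraries were lower without overlap. The share over all fitted elements was 12.6%, and over 646 MERVL-int elements it was 61.1%. Of the 31, KO was higher without overlap in 3, beside 15.1% of all. Elements that pass the count filter through WT alone can only be lower, so these shares describe the elements and support no test.

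RMER15, a rodent LTR subfamily, had the highest mean CPM of the LTR subfamilies. It had 207, 178 and 195 CPM in WT and 304, 243 and 537 in KO, so that all KO libraries were higher. The log2 change was 0.90 ± 0.433 (SE), with an edgeR adjusted p of 0.333. KO replicate 3 was well above the other two.

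The other RMER members did not separate the groups. RMER10A had 89.1, 165 and 466 CPM in WT and 135, 60.4 and 550 in KO, with a log2 change of 0.05 ± 0.929 (SE) that became -0.025 with DESeq2 size factors and 1.53 without elements counted almost wholly in 1 library. The printed element at chr9:88952712-88953155 had 725 counts in WT replicate 3 and 0 in the other 5 libraries. Its near copy at chr9:89195061-89195514 had 509 counts in the same library and 0 elsewhere. Reads of such near copies may be shared, so the count of either alone is uncertain. RMER15-int, the matching internal part, was among the most even, with 104, 70.1 and 98.4 CPM in WT and 117, 69.0 and 116 in KO and a log2 change of 0.15.

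The MT2 LTRs, named like the LTR of MERVL, had log2 changes below 0 in 4 of 5. MT2A and MT2C_Mm turned above 0 without elements counted almost wholly in 1 library. Such elements were picked from these same counts. Over all members they took 0.0744% of WT and 0.0405% of KO libraries on average, so leaving them out takes more from WT. MT2B1 had 250, 380 and 60.1 CPM in WT and 76.0, 72.7 and 88.6 in KO. Its log2 change was -1.54 ± 0.705 (SE, edgeR adjusted p = 0.321), and WT replicate 3 lay below the KO libraries. Without elements counted almost wholly in 1 library it was -0.42. The printed element at chr5:109753507-109754241 gave 428 of its counts to WT replicate 1, 2 to KO replicate 1 and 0 to the others.

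MT2B2 had 149, 10.9 and 142 CPM in WT and 34.1, 20.3 and 26 in KO, with a log2 change of -1.90, or -0.18 without such elements. MT2C_Mm had 69.9, 133 and 11.1 CPM in WT and 20.1, 20.3 and 7.76 in KO, with a log2 change of -2.15. In MT2C_Mm 1 element held 55.5% of the count, and without elements counted almost wholly in 1 library the change was 0.37. MT2A gave -0.25, or 0.11 without such elements, and MT2B gave 0.20. Within libraries, none of the 5 separated from MT2_Mm, with exact permutation p-values from 0.3 to 1 before adjustment. Only MT2A without elements of 1 library (a difference of 1.38) and MT2B outside genes (3.28) had separate ratios among the alternatives run with all 6 libraries, both at the smallest exact p of 0.1.

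LTR33A_ had the lowest log2 change, -4.62 ± 1.06 (SE, edgeR adjusted p = 0.0963). Its CPM were 81.2, 5.95 and 61.8 in WT and 2.24, 1.85 and 1.83 in KO, so it passed the count filter through WT alone. A single element at chr16:47935392-47935565, named after its values were seen, held 87.7% of the count, with 166 and 173 counts in WT replicates 1 and 3 and 0 in the other 4 libraries. A count of 0 allows up to 3 counts per library, counting error only. Without WT replicate 2 the subfamily passed the threshold, with a log2 change of -5.15 and an edgeR adjusted p of 0.029.

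Most of the count of ERVL-int came from 1 library. It had 27.7, 261 and 8.06 CPM in WT and 19.0, 38.8 and 7.31 in KO. Its printed tandem element, in an intron of Rbl1, had 429 counts in WT replicate 2 and 0 elsewhere. Without that library the log2 change turned from -2.19 to 0.27. ERVL-B4-int was high in KO replicate 1 alone, at 252 CPM against 35.2 to 87.3 in the others, and ERVL-E-int in WT replicate 3 alone, at 163 CPM against 11.9 to 71.0. ERV3-16A3_I-int, named outside the naming rules, had 26.3, 13.2 and 17.1 CPM in WT and 26.8, 30.8 and 25.1 in KO. Its groups overlapped, with a log2 change of 0.55, and 1 element held 51.2% of its count.

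The MLT2 LTRs had few counts. All 6 tested had log2 changes above 0, from 0.11 in MLT2B1, which was below 0 when any 1 of 3 libraries was left out, to 1.40 in MLT2D. MLT2D had 5.63, 8.60 and 5.37 CPM in WT and 27.4, 18.5 and 6.39 in KO (edgeR adjusted p = 0.301). MLT2B3 had 8.44, 10.2 and 6.72 in WT and 26.8, 20.3 and 10.0 in KO (edgeR adjusted p = 0.307). In both the groups met at 1 library. No MLT2 element reached 50 counts in total, and 74.6% of those counted were counted in 1 library. MLT2B5, MLT2C2, MLT2E and MLT2F had too few counts to fit.

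MER21C had the highest log2 change, 2.50 ± 1.17 (SE, edgeR adjusted p = 0.327), from 17.4, 18.8 and 10.7 CPM in WT and 12.3, 231 and 23.3 in KO. KO replicate 2 stood alone, and over elements outside genes the change was -0.36. MER21B was high in WT replicate 1 and KO replicate 3, at 109 and 223 CPM, and between 6.16 and 19.0 elsewhere. LTR16A gave -0.02 and LTR33 0.64, neither with separate groups. MER68 had 0.913 to 6.04 CPM and was not fitted.

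Many of these elements were counted in a single library. Of member elements with counts, 72.4% were counted in 1 library and 2.19% in all 6, against 55.2% and 11.3% of all elements. An element with a single count can appear in 1 library only, and these shares were not adjusted for count. Among elements with at least 50 counts, 48 of 108 or 44.4% had at least 90% of their count in 1 library, against 14.3% of all such elements. The share was 9.38% for MERVL_2A-int and 1.00% for MERVL-int but 78.6% for the MT2 LTRs and 66.7% for MT2_Mm. Internal parts had 20.4% of 49 elements and all other members 64.4% of 59. Of the 49, 32 were MERVL_2A-int. RMER15-int had 0 of 4, and the other internal parts had 7 of 13 or 53.8%.

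**Figure D5:**
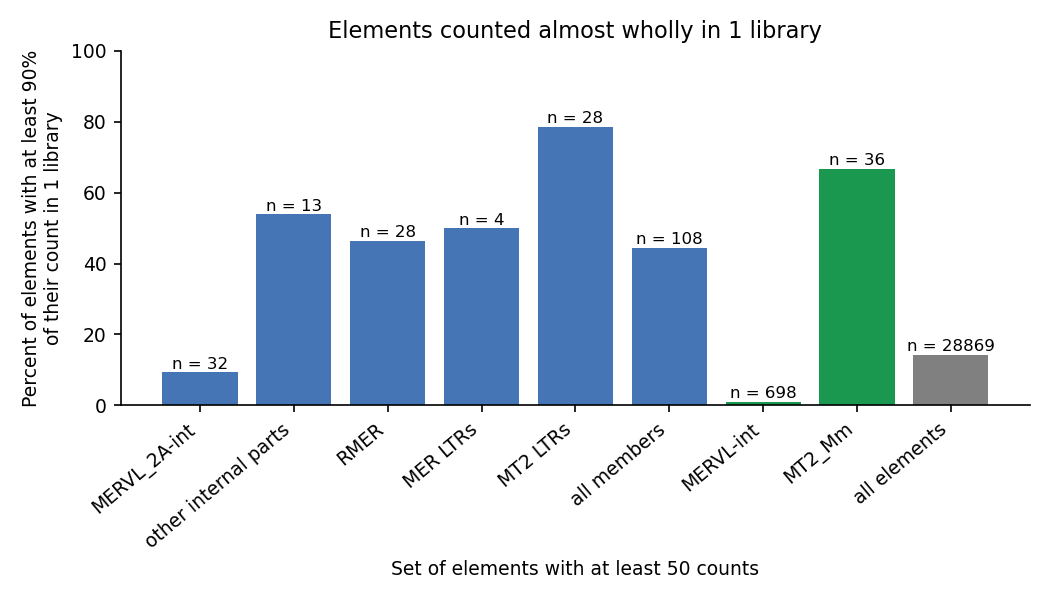
Percent of elements with at least 50 counts that had at least 90% of them in 1 library (y axis), for sets of members (blue), the MERVL comparators (green) and all repeat elements (grey), with the number of elements above each bar. MERVL_2A-int is at 9.38% and the MT2 LTRs at 78.6%.

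The 48 elements fell on every library, with 8, 16 and 9 in the WT replicates and 3, 2 and 10 in the KO replicates. The 16 of WT replicate 2 held 39.2% of the member count of that library, and the 3 of KO replicate 1 held 10.8%. The WT libraries were also the deeper ones, and the part of depth in this was not tested. By number of elements, the share in annotated genes was close to that of all repeats. Of member elements with counts 42.6% lay in a gene and 5.32% on an exon, against 44.9% and 4.44% of all elements with counts. By count it was higher: 43.1% of the member count lay in genes and 6.59% on exons, against 31.1% and 5.19% over all elements. For MERVL-int these shares were 43.0% and 4.80%.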

How the data were processed

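Per the labels and methods, the authors trimmed with Trimmomatic 0.39 and aligned to mm10, the transcriptome and spike-ins with HISAT2 2.1.0. Picard took out duplicates, and featureCounts gave the value of each repeat element. The element names come from a tool that joins fragments of 1 insertion, so a span can hold later insertions. The deposited values are estimated counts (40.1% of the non-zero member values were whole within 1e-06). The option that made them fractional and any use of strand are not given in the sources used here. The K-562 table was not used here.

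Counts were summed per subfamily, rounded and tested KO against WT, without a replicate block, with edgeR 4.0.16 (filterByExpr, TMM, quasi-likelihood, Benjamini–Hochberg adjustment over all subfamilies or loci), after the scripts were tested on simulated data. A call is an adjusted p under 0.05. DESeq2 1.42.0, other scalings, filters, element sets and left-out libraries were alternatives. Library totals were 2199886, 3171701 and 3318565 in WT and 1721262, 1532029 and 1999210 in KO. Within-library ratios took a pseudocount of 0.5 and an exact permutation test. Gene overlap used GENCODE M21 with bedtools 2.31.1, not the release the authors named. Sequences came from GRCm38.p6, whose 21 chromosomes no element overran, and BLASTN 2.17.0 compared copies with MERVL-int elements of 5000 to 5800 bases.

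Named subfamilies were called members, the 12 highest by CPM, members with separate groups and 50 counts or more on average and a list of 24. Named loci were the 10 highest and the 5 highest with counts in all 6 libraries. Some of these loci are not reported here. The members and lists were chosen with earlier results of these data known.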

Additional observations from a re-analysis of the deposited data

How the results depend on the processing

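The absence of a called member held under every alternative but 2: DESeq2's Wald test called 2 members, MERVL_2A-int and LTR33A_, and leaving out single libraries gave 0 to 1, with LTR33A_ passing without WT replicate 2. Calls over loci went from 0 to 4 with DESeq2. Over all subfamilies the 11 calls became 7 with DESeq2 size factors, 5 with library totals, 56 with DESeq2, 7 without the 10 highest elements and 5 to 7 without single libraries. The replicate numbers did not pair the libraries (correlations of same-numbered deviations of -0.093, -0.036 and -0.046), and with the number as a replicate block there were 0 calls over all subfamilies, 68 of them at an unadjusted p under 0.05, and 0 member calls. The log2 ratio of the summed share, -0.03, became 0.26 without elements of 1 library, a set that held more of the WT than of the KO libraries. It was -0.21 after TMM scaling, -0.26 with DESeq2 size factors, -0.35 outside genes and -0.06 with the replicate block. Leaving out single libraries gave -0.28 to 0.09.

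Ratios of LTRs to MT2_Mm turned sign: MT2C_Mm, at -0.13, gave 1.56 without elements of 1 library, 0.74 outside genes, 0.013 with a pseudocount of 5 and -1.40 to 0.75 without single libraries. Leaving out single libraries gave -0.68 to 0.93 for MT2B1 and -0.89 to 1.15 for MT2B2. MERVL_2A-int over MERVL-int kept its sign throughout. Leaving out single libraries gave 0.40 (without KO replicate 3) to 0.92 (without KO replicate 1), and the close copies alone gave 0.21. Outside genes it was 0.49 (exact permutation p = 0.4), and the groups were no longer separate. With the replicate block it was 0.71 by construction.

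Among named subfamilies the sign turned outside genes for RMER10A (0.05 to -2.66), MT2A (-0.25 to 0.20), ERVL-B4-int (0.83 to -0.34), ERVL-int (-2.19 to 0.40), ERVL-E-int (-0.77 to 0.26) and MER21C (2.50 to -0.36). Without elements of 1 library it turned for MT2A (0.11), ERVL-B4-int (-0.48), ERVL-int (0.21), MT2C_Mm (-2.15 to 0.37) and LTR16A (-0.02 to 1.07). It moved without turning for MT2B1 (-1.54 to -0.42), MT2B2 (-1.90 to -0.18), ERVL-E-int (-0.77 to -0.32), MER21C (2.50 to 0.26) and RMER10A (0.05 to 1.53). Near 0, RMER10A was -0.025 with DESeq2 size factors and with DESeq2, -0.024 with no filter or at least 10 counts in total, and -0.18 with the replicate block. LTR16A was 0.15 with library totals and 0.16 with the replicate block. Leaving out single libraries spanned 0 for RMER10A (-1.31 to 0.96), MT2B (-0.55 to 0.60), MT2A (-0.92 to 0.79), RMER15-int (-0.012 to 0.37), ERVL-B4-int (-0.75 to 1.25), MER21B (-1.79 to 3.01), ERVL-int (-2.90 to 0.27), ERVL-E-int (-1.46 to 0.87), LTR16A (-0.30 to 0.71) and MLT2B1 (-0.23 to 0.90).

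MERVL_2A-int, LTR33A_ and RMER15 kept their direction under every alternative fitted. So did MT2B1, MT2B2, LTR33, MLT2B2, MLT2B3, MLT2B4, MLT2C1 and MLT2D. LTR33A_ passed the count filter through WT alone, so it could only be lower. Against TMM, library totals shifted the median of all subfamilies by 0.18 and counting outside genes by -0.11. The cause of each change was not tested. Depth limits the rest: 82 members had too few counts for a fit, and they held 5.09% of the count.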
